A study of Mus musculus with 4 samples.

Results

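Nuclear genes for the machinery of oxidative phosphorylation were examined in testes of Adad2-knockout and wild type mice. Members were chosen by gene symbol alone: the Nduf, Uqcr and Atp5 families, Sdha to Sdhd, the nuclear Cox4 to Cox8 families, and the cytochrome c genes Cycs and Cyct, leaving out the mitochondrial genome. The choice gave 92 of the 26068 table entries that name a gene. Of these, 88 were assigned to complexes I to V or cytochrome c by their known roles. The other 4 were not assigned. They are the pseudogene Atp5l-ps1, Atp5s and Atp5sl (RefSeq symbols Dmac2l and Dmac2), and Cox4nb, a subunit of a protein complex of the endoplasmic reticulum.

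RNA was sequenced from whole testes of 24-day-old males of B6D2F1, a cross between inbred lines. There were 2 libraries from mice homozygous for the Adad2 knockout and 2 from wild type mice. Adad2 encodes a germ cell protein related to adenosine deaminases, and the series asks about spermatid formation and piRNA, the small RNAs of germ cells. The labels do not say whether the replicates were separate animals, nor how the knockout allele was made, so p-values reflect the variation among these 4 libraries alone, and that variation could be technical. Levels are given as log2 RPKM, reads scaled by gene length and by library depth and put on the log2 scale, and all changes are knockout minus wild type.

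Complex I passes electrons from NADH, and complex II from succinate, to ubiquinone. Complex III hands them to cytochrome c, complex IV passes them to oxygen, and complex V makes ATP from the proton gradient. Male germ cells use testis isoforms of some of these proteins: Cyct in place of the somatic cytochrome c Cycs, and Cox6b2, Cox7b2 and Cox8c beside the complex IV subunits Cox6b1, Cox7b and Cox8a.

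The promoters of Cyct and Cox6b2 are shown with those of their somatic partners, because these isoform pairs are compared throughout. Each window runs from 250 bases before to 50 after the annotated start, from RefSeq on GRCm38.p6, 5′ to 3′ on the gene's own strand. Capitals mark a cyclic AMP response element (TGACGTCA) in Cycs and an Ets family motif (CCGGAAG, here on the opposite strand) in Cox6b1. The windows are Cyct chr2:76360404-76360703, Cycs chr6:50566520-50566819, Cox6b2 chr7:4753045-4753344 and Cox6b1 chr7:30626065-30626364, all on the minus strand.
Cyct: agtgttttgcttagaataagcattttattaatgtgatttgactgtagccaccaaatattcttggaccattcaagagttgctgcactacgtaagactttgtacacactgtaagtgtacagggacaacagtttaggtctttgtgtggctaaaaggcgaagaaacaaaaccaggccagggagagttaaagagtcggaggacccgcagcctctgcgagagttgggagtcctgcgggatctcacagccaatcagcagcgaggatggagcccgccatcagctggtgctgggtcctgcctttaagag
Cycs: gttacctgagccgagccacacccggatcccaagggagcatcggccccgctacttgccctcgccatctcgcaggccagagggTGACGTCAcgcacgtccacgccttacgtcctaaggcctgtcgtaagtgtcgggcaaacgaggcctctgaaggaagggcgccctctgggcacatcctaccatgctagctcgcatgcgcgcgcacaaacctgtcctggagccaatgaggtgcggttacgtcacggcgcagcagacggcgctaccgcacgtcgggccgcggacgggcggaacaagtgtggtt
Cox6b2: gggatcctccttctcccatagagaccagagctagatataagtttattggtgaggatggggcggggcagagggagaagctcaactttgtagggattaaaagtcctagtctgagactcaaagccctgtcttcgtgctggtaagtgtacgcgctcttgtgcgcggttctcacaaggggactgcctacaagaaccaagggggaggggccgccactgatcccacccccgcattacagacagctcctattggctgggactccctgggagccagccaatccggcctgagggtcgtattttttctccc
Cox6b1: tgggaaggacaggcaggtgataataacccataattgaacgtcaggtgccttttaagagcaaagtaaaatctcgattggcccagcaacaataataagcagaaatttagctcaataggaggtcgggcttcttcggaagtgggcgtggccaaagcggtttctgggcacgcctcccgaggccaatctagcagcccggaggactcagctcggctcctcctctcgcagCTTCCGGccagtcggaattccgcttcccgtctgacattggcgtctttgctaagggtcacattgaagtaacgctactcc
Counted from the start, the element in Cycs begins at position -169 and the motif in Cox6b1 at position -28. Of the 92 members, 75 matched a RefSeq window. Both strands were searched for 3 motifs. TGACGTCA was in 5 members (6.67%), against 2.03% of the 27025 genes with a window and 2.54% of the 17492 protein-coding ones. The 5 were Cycs, Ndufa10, Ndufa11, Ndufb2 and Uqcrfs1. The Nrf1 motif (GCGCA, any base, then GCGC) was in 18 members (24%), against 5.19% of all and 7.17% of protein-coding genes. The Ets motif CCGGAAG was in 17 members (22.7%), against 9.93% and 12.9%. The 3 matched testis isoforms, Cyct, Cox6b2 and Cox7b2, held none of these letters in the window. Neither did Cox7b, the somatic partner of Cox7b2. Among the 72 other matched members the 3 motifs were in 5, 18 and 17, so each was absent from most. A match describes the letters and does not show a bound site.

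Adad2 itself read 3.73 and 3.30 log2 RPKM in the knockout libraries, against 4.66 and 4.47 in wild type. It fell by 1.05 (SE 0.16, limma adjusted p = 0.00604), with transcript still measured in both knockout libraries, and the call was lost without wild type replicate 1 (adjusted p = 0.143) or 2 (0.0838). Depth, estimated from the value of single reads, was 33000000 and 29500000 reads in the knockout libraries and 30300000 and 36900000 in wild type. Spermatocyte markers were present, with a summed RPKM of 2284 and 2178 in the knockout libraries and 1825 and 2109 in wild type. Of that list, Tex101 rose 2.20-fold (adjusted p = 0.000977) and Pgk2 fell by 0.62 on the log2 scale (adjusted p = 0.0216), and the other 6 were not called. The lists of spermatogonia, Sertoli cells and Leydig cells held 0 genes called by limma, beside 8.36% of all genes. Above 0 lay 6 of 6, 7 of 7 and 6 of 6 of their tested genes, beside 71.8% of all genes. Their median changes were 0.24, 0.25 and 0.27, beside 0.14 over all genes. At an unadjusted limma p under 0.05 the lists held 2, 4 and 1 genes, beside 27.0% of all genes. Both knockout libraries lay below both wild type libraries in all 10 round spermatid and all 10 elongating spermatid markers, beside 16.8% of all genes. Limma called 7 and 9 of them lower, beside 7.15% of all genes. Without wild type replicate 1 limma called 0 of all genes, these included, with 2357 at an unadjusted p under 0.05. Summed RPKM of the elongating spermatid list was 139 and 84.4 in the knockout libraries, against 1077 and 1015 in wild type. In whole testes, fewer cells of a type and less RNA per cell cannot be told apart. The part of this difference in the members' values was not tested.

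A single member, Ndufa1, passed the test over all genes, and it rose in the knockout. No member was called lower, though 14 of the 89 tested members had changes below 0. Genes were tested when their mean was at least 0 log2 RPKM, and 89 members entered; Cox4i2, Cox6a2 and Cox8b did not. The test was limma with Benjamini-Hochberg adjustment over 13414 genes, at a threshold of 0.05. Over all those genes 8.36% were called, 1.22% higher and 7.15% lower. Among the 89 tested members the counts were 1 higher, 0 lower and 88 not called. At an unadjusted p under 0.05 the members numbered 12, with 10 higher and 2 lower, beside 27.0% of all genes, 15.6% higher and 11.3% lower. Both knockout libraries lay above both wild type libraries in 45 members (50.6%, against 46.4% of all genes), and below them in 4 (4.49%, against 16.8%). Those 4 were Ndufa5, Ndufa12, Ndufa13 and Ndufaf2, named after their values were seen.

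Differences between the groups were small throughout. They ran from -0.35 to 0.54 with a median of 0.15, beside 0.14 over all genes tested. Changes within 0.25 of 0 were found in 73 of 89 members and in 8005 of the 13414 genes. Of the 89 members, 75 (84.3%) had values above 0, beside 71.8% of all genes tested. The 95% confidence interval of every tested member lay within 1 of 0 on the log2 scale, as did those of 11987 of the 13414 genes. For 64 members it lay within 0.5, as it did for 5934 of the 13414 genes. The fewest estimated reads behind a tested member in any library were 30. Wild type replicate 1 was the lowest of the 4 libraries in 60 of the 85 tested members of the complexes and cytochrome c. Their median deviation from the mean of all libraries was 0.05 and 0.07 in the knockout libraries, and -0.14 and 0.00 in wild type replicates 1 and 2. Over all genes it was 0.06 and 0.06 in the knockout libraries, and -0.08 and -0.04 in wild type. The median change of these 85 members was 0.13, and was 0.06 without wild type replicate 1 and 0.20 without wild type replicate 2. The 3 globin genes of the red blood cell list were highest in wild type replicate 1, while the fourth marker, Alas2, was lowest there. The list's summed RPKM was 31.6 and 39.97 in the knockout libraries, against 83.9 and 40.7 in wild type. The part of these markers in the members' values was not tested.

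**Figure D1:**
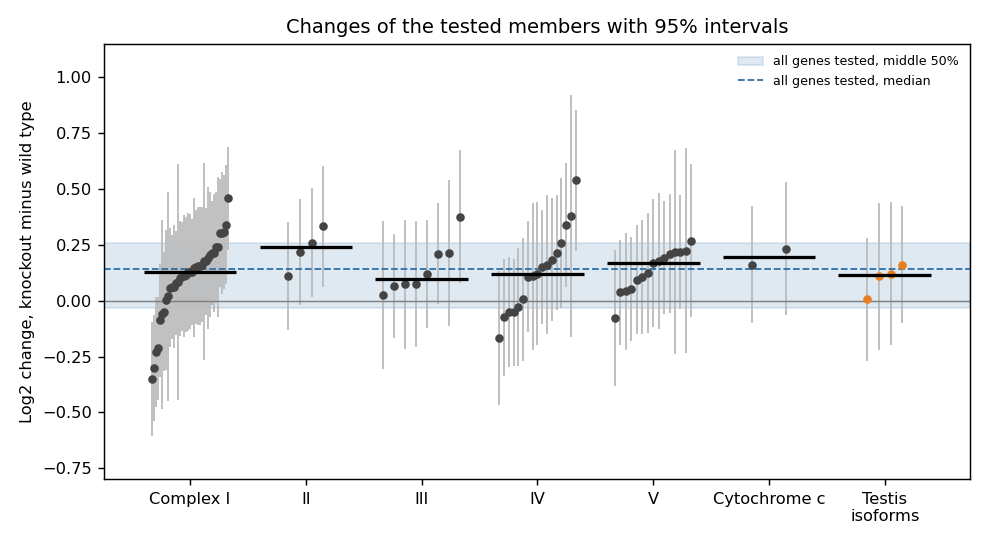
Log2 change (knockout minus wild type, y axis) of each tested member by complex, one point per gene with its 95% confidence interval, thick bars at group medians, the 4 testis isoforms repeated at the right, and a band and dashed line for the middle 50% and the median of all genes tested. Points run from -0.35 (Ndufaf2) to 0.54 (Cox7a2l), and group medians from 0.10 (complex III) to 0.24 (complex II).

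Complex I had 39 tested members, of which 32 (82.1%) lay above 0, beside 71.8% of all genes. Their changes ranged from -0.35 to 0.46 with a median of 0.13, which was 0.06 without wild type replicate 1 and 0.20 without wild type replicate 2. Ndufa1, a small membrane subunit needed for assembly of the complex, read 5.05 and 5.10 log2 RPKM in the knockout libraries, against 4.64 and 4.60 in wild type. The groups did not overlap and the libraries of a group lay close together. The change was 0.46 (SE 0.10, 95% confidence interval 0.23 to 0.69), a 1.38-fold higher level, with a limma adjusted p = 0.0264. The call was lost without wild type replicate 1 (adjusted p = 0.125), wild type replicate 2 (0.118) or knockout replicate 2 (0.0881). It was also lost with no filter on low genes (0.0627) and without limma's trend and robust estimation (0.0655). Ndufa1 (ENSMUSG00000016427) lies on the minus strand at chrX:34727583-34731158 in mm9. Its RefSeq promoter window held none of the 3 motifs. Of the other X-linked members, Ndufb11 of complex I had 3.27 and 3.39 log2 RPKM in knockout libraries against 3.18 and 3.13 in wild type, and Cox7b is described with its testis isoform. All 3 X-linked members had both knockout libraries above wild type, as did 49.3% of the 527 tested genes of chromosome X and 46.4% of all genes. Their median change was 0.38, beside 0.20 over those 527.

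Ndufs5, a supernumerary subunit, had 3.59 and 3.56 log2 RPKM in the knockout libraries and 3.11 and 3.36 in wild type (change 0.34, adjusted p = 0.119). Ndufaf2, an assembly factor, had 4.93 and 4.83 in the knockout libraries and 5.15 and 5.31 in wild type (change -0.35, adjusted p = 0.0999). Ndufa13, a supernumerary subunit also known as Grim19, had 13.7 and 13.4 RPKM in the knockout libraries and 15.97 and 17.5 RPKM in wild type (log2 change -0.30, adjusted p = 0.122). Each of the 3 had groups that did not overlap, and none passed the test. Ndufa13 shares 375 bases in the table with Tssk6, a spermatid kinase gene on the other strand. Tssk6 read 0.00 and -0.01 log2 RPKM in the knockout libraries against 3.47 and 3.40 in wild type. Whether reads were assigned by strand is not given in the sources used here, and the part of Tssk6 in the Ndufa13 value was not tested.

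By role, the 7 core subunits of complex I, which carry the electron path, had a median change of 0.13, with 6 above 0. The 28 supernumerary subunits had a median of 0.12, with 23 above 0. The 4 assembly factors ranged from -0.35 (Ndufaf2) to 0.24, with a median of 0.21. Among the core subunits, Ndufs8 had 4.52 and 4.77 log2 RPKM in the knockout libraries and 4.29 and 4.39 in wild type (change 0.30, adjusted p = 0.154). Ndufaf3, an assembly factor, was the highest member of complex I, at 7.31 and 7.12 in the knockout libraries and 6.83 and 7.11 in wild type. The next highest were the supernumerary subunits Ndufb9, at 6.44 and 6.52 in the knockout libraries and 6.26 and 6.48 in wild type (change 0.11, adjusted p = 0.533), and Ndufa2, with a change of 0.12 (adjusted p = 0.487). The groups of Ndufaf3 did not overlap, but its lower knockout library was almost level with the higher wild type one (change 0.24, adjusted p = 0.267).

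All 4 subunits of complex II, whose subunits are all encoded in the nucleus, lay above 0, as did 71.8% of all genes, from 0.11 to 0.33 with a median change of 0.24. None passed the test. Sdhc, a membrane anchor, had 4.12 and 4.19 log2 RPKM in the knockout libraries and 3.69 and 3.95 in wild type (change 0.33, adjusted p = 0.129). Sdhd, the other anchor, had 5.36 and 5.41 in the knockout libraries and 5.06 and 5.19 in wild type (change 0.26, adjusted p = 0.167). The catalytic subunit Sdha had a change of 0.22 and the iron-sulfur subunit Sdhb one of 0.11. Both knockout libraries lay above both wild type libraries in all 4, beside 46.4% of all genes.

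Complex III had 8 tested members, all above 0, beside 71.8% of all genes, from 0.03 to 0.38 with a median change of 0.10. Uqcrc2, a subunit on the matrix side, had 5.69 and 5.77 log2 RPKM in the knockout libraries and 5.20 and 5.51 in wild type (change 0.38, adjusted p = 0.122). Uqcrfs1, the Rieske iron-sulfur protein, differed little, with 5.77 and 5.77 in the knockout libraries and 5.68 and 5.72 in wild type (change 0.07, adjusted p = 0.665). Uqcrb, which has near-identical pseudogene copies, had a change of 0.21 (adjusted p = 0.336). Uqcrc1, the highest of the complex, had 6.47 and 6.62 in the knockout libraries and 6.35 and 6.59 in wild type, and its groups overlapped. The median of complex III was 0.03 without wild type replicate 1, 0.20 without wild type replicate 2 and 0.17 without knockout replicate 1.

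Complex IV had 20 members, of which 17 were tested and 12 (70.6%) lay above 0, beside 71.8% of all genes. Changes ran from -0.17 to 0.54 with a median of 0.12, which was 0.08 without wild type replicate 1. Cox7a2l, which joins complexes III and IV into supercomplexes, had the largest change of any tested member. It read 5.48 and 5.19 log2 RPKM in the knockout libraries, against 4.67 and 4.92 in wild type. The groups did not overlap. The change was 0.54 (SE 0.14, 95% confidence interval 0.22 to 0.85), and its limma adjusted p of 0.05004 just missed the threshold. It was past the threshold in some alternatives and further from it in others. Cox7a2l passed with a replicate block (limma adjusted p = 0.000252), though no label ties the replicate numbers across groups. It passed at a filter of 2 log2 RPKM (0.0232), on log2(RPKM + 1) (0.0436), after quantile normalization (0.0188), with equal library medians (0.0311), and without knockout replicate 2 (0.00176). It missed with no filter (0.147), without trend and robust estimation (0.112), and without wild type replicate 1 (0.274), wild type replicate 2 (0.125) or knockout replicate 1 (0.128). Cox7a2l has a near-identical copy, a pseudogene, so part of its reads may have been counted there or lost. Cox4i1, the widespread form of subunit 4, had 7.87 and 7.85 in the knockout libraries and 7.47 and 7.73 in wild type (change 0.26, adjusted p = 0.222). It lies wholly within another annotated entry on the same strand, Gm20388. Ndufa4l2, a paralog of the complex IV subunit Ndufa4, had 3.56 and 3.84 in the knockout libraries and 3.76 and 3.97 in wild type (change -0.17, adjusted p = 0.403).

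**Figure D2:**
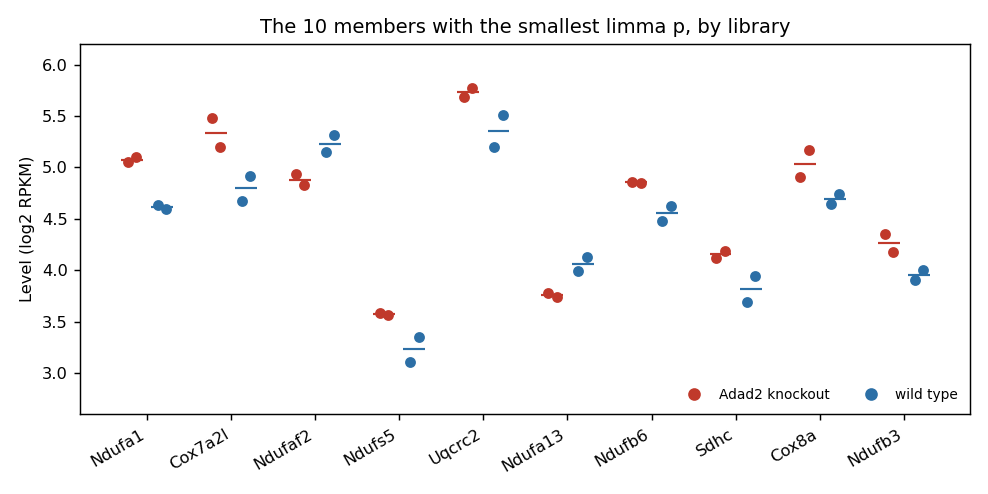
Log2 RPKM (y axis) in each library for the 10 tested members with the smallest unadjusted p, 2 knockout points left of 2 wild type points for each gene, with lines at group means. Ndufa1 sits at 5.05 and 5.10 in knockout libraries against 4.64 and 4.60 in wild type; the other members shown did not pass the test over all genes.

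Complex V had 15 tested members, 14 of them (93.3%) above 0, beside 71.8% of all genes, from -0.08 to 0.27 with a median change of 0.17. None had an unadjusted limma p under 0.05, beside 27.0% of all genes. The highest were the core subunits Atp5a1, at 6.56 and 6.63 log2 RPKM in the knockout libraries and 6.31 and 6.45 in wild type, and Atp5b, at 6.46 and 6.49 in the knockout libraries and 6.33 and 6.43 in wild type. Their changes were 0.22 and 0.09, with adjusted p of 0.236 and 0.555. Atp5e, the next highest, had 5.15 and 5.23 in the knockout libraries and 5.14 and 5.17 in wild type (change 0.04, adjusted p = 0.809). Atp5b lies within the entry of Baz2a on the same strand. The 5 core subunits had a median change of 0.11, and the 10 stalk and membrane subunits of 0.19. Atp5k had the highest change, 0.27 (adjusted p = 0.263), and Atp5l was the only member of the complex below 0, at -0.08 (adjusted p = 0.706). Atp5g1, a gene for the membrane rotor ring, had a change of 0.22 (adjusted p = 0.457). Near-identical genes, 9 for Atp5l and 1 each for Atp5k and Atp5g1, may share their reads. The median of complex V was 0.05 without wild type replicate 1 and 0.09 without knockout replicate 2. Of the 4 members not assigned to a complex, Atp5l-ps1, Atp5sl and Cox4nb had changes of 0.27, 0.17 and 0.17, and Atp5s of -0.20, with no adjusted p under 0.322.

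The testis isoforms were among the most abundant members in both groups. Cox8c had the highest level of all members and ranked 10th of the 13414 tested genes by mean. Cox6b2 ranked 66th, Cox7b2 91st and Cyct 322nd. Only 5 members reached 100 RPKM in every library: Cox8c, Cox4i1, Cox6b2, Cox7b2 and Ndufaf3. Cox8c lay above the others in every library. Neighbours in the order Cox4i1, Cox6b2, Cox7b2 and Ndufaf3 overlapped in their ranges over libraries.

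**Figure D3:**
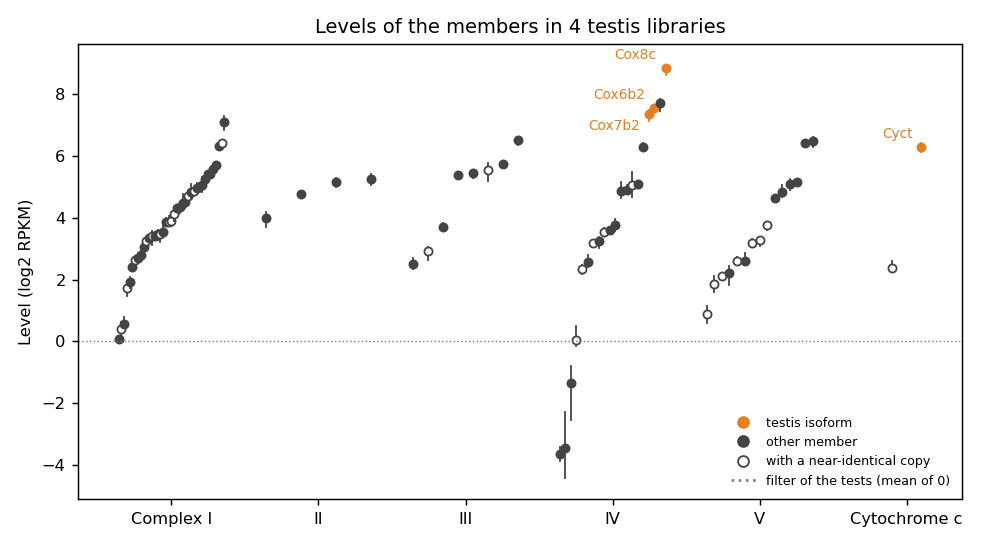
Level of each member of the complexes and cytochrome c (log2 RPKM, y axis), with points at the mean of all 4 libraries, knockout and wild type together, and lines from the lowest to the highest library; open points have a near-identical copy. Cox8c stands highest, at a mean of 8.85, and Cox4i2, Cox6a2 and Cox8b lie below the dotted filter at 0.

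Cox8c read 8.95 and 8.86 log2 RPKM in the knockout libraries, against 8.63 and 8.96 in wild type, which is 496 and 466 RPKM against 397 and 500 RPKM. The groups overlapped, and the change was 0.11 (95% confidence interval -0.22 to 0.44, adjusted p = 0.609). Its somatic partner Cox8a had 4.91 and 5.17 log2 RPKM in the knockout libraries and 4.64 and 4.75 in wild type (change 0.34, adjusted p = 0.129). Cox6b2 had 7.63 and 7.48 in the knockout libraries and 7.48 and 7.62 in wild type, the smallest change of the testis isoforms at 0.01 (95% confidence interval -0.27 to 0.28, adjusted p = 0.971). Its partner Cox6b1 had 3.60 and 3.57 in the knockout libraries and 3.57 and 3.71 in wild type (change -0.05). Both pairs of groups overlapped for the Cox6b genes.

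Cox7b2 had 7.36 and 7.50 log2 RPKM in the knockout libraries and 7.15 and 7.47 in wild type (change 0.12, 95% confidence interval -0.20 to 0.44, adjusted p = 0.558). Its X-linked partner Cox7b had 0.00 and 0.48 in the knockout libraries and -0.11 and -0.16 in wild type (change 0.38, adjusted p = 0.307), and 2 near-identical pseudogenes may share its reads. Cyct had 6.31 and 6.42 in the knockout libraries and 6.12 and 6.29 in wild type (change 0.16, 95% confidence interval -0.10 to 0.43, adjusted p = 0.359), with the groups not overlapping. Cycs had 2.61 and 2.35 in the knockout libraries and 2.23 and 2.26 in wild type (change 0.23, adjusted p = 0.262), and 4 near-identical genes may share its reads. All 4 testis isoforms had intervals within 0.5 of 0, beside 5934 of the 13414 genes.

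**Figure D4:**
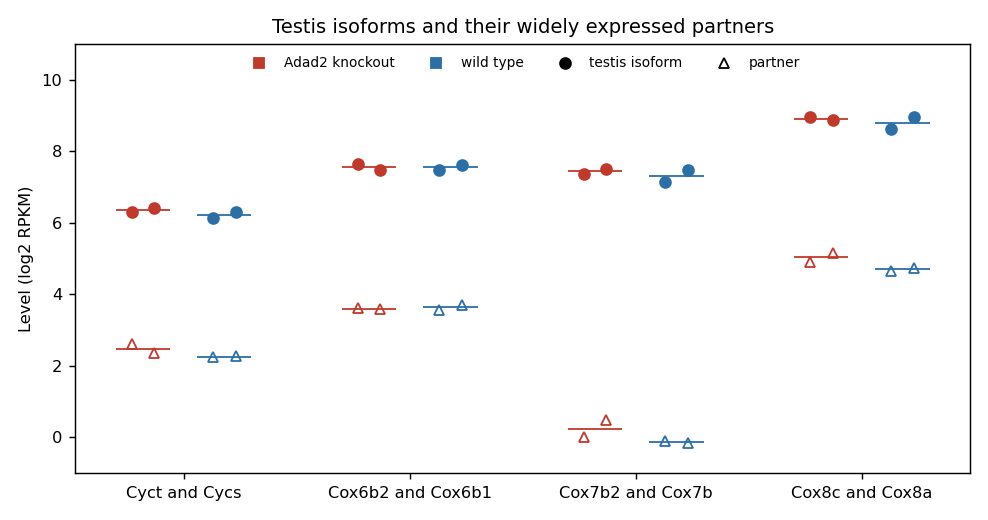
Log2 RPKM (y axis) of each testis isoform (circles) and its somatic partner (triangles) in every library, 2 knockout libraries left of 2 wild type libraries, with lines at group means. The testis isoform lies above its partner in all 4 libraries of each pair, by 3.70 to 7.64 on the log2 scale.

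Within a library, the level of the testis isoform was set against that of its partner. Cyct made up 92.8% and 94.4% of the pair's summed RPKM in the knockout libraries, against 93.7% and 94.2% in wild type. Cox6b2 made up 94.2% and 93.8% in the knockout libraries, against 93.8% and 93.8% in wild type. Cox7b2 made up 99.4% and 99.2% in the knockout libraries, against 99.4% and 99.5% in wild type. Cox8c made up 94.3% and 92.9% in the knockout libraries, against 94.1% and 94.9% in wild type. Near-identical copies that may share reads were found for Cycs and Cox7b, and not for Cyct and Cox7b2. Cox7b also rested on an estimated 34 to 50 reads per library. The part of these copies in the shares was not tested. The difference between groups in the log2 ratio of isoform to partner was -0.07 for Cyct, 0.06 for Cox6b2, -0.26 for Cox7b2 and -0.23 for Cox8c, and the groups overlapped in each. The exact two-sided permutation p was 1 for Cyct and 0.667 for the others, in a design of 2 against 2 whose smallest p is 0.333.

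Isoforms of muscle, heart or lung lay below their widespread partners. Cox7a1, of heart and muscle, had 2.52 and 2.81 log2 RPKM in the knockout libraries and 2.58 and 2.42 in wild type, against Cox7a2 at 4.89 and 4.85 in the knockout libraries and 4.83 and 5.05 in wild type. The difference between groups in their log2 ratio was 0.24 (exact permutation p = 0.667). Cox4i2, the lung form, had an estimated 15 and 10 reads in the knockout libraries and 13 and 5 in wild type. Cox6a1, the widespread form of subunit 6a, had 6.34 and 6.42 log2 RPKM in the knockout libraries and 6.16 and 6.30 in wild type (change 0.15, adjusted p = 0.374). Cox6a2, a muscle form, had at most 1 read in the knockout libraries and about 3 and 5 in wild type, and Cox8b was at the level of no reads or 1 read in all libraries. No ratio was taken for Cox6a2 or Cox8b, since their reads in at least 1 library were below 3. The 13 genes of the mitochondrial genome were at the floor of the table in every library, so the mitochondrially encoded subunits were not analysed here.

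Near-identical copies, in transcripts of another gene, were found for 29 members, at 95% identity over at least 200 bases. A gene that overlaps the member could count, so a copy need not lie elsewhere in the genome. The median mean level of these 29 members was 3.18 log2 RPKM, against 4.85 for the 60 tested members without a copy. Their median change was 0.18, against 0.13. Reads of these genes may have been split or lost, so their levels are uncertain. Another entry overlapped 21 members, on the other strand for 19 of them, and the 20 tested had a median change of 0.13.

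Genes that serve the same pathway were described beside the members. Of 45 assembly and accessory factors, 31 had an entry and 30 were tested. Limma called 0 of them, beside 8.36% of all genes, and 3 had an unadjusted p under 0.05, beside 27.0%. Above 0 lay 24 (80%, beside 71.8% of all genes), and the median change was 0.12, beside 0.14. Cyc1, the cytochrome c1 subunit of complex III whose symbol the choice did not take in, had a change of 0.26 (adjusted p = 0.185). Of 20 genes of pyruvate dehydrogenase and the citric acid cycle, all were tested and the median was 0.17, beside 0.14 over all genes. Limma called 0 of these 20, beside 8.36% of all genes, and 1 had an unadjusted p under 0.05, beside 27.0%. Sucla2, a subunit of succinyl-CoA synthetase, had a change of -0.35 (adjusted p = 0.0877), and Pdha2, the testis form of a pyruvate dehydrogenase subunit, of 0.08 (adjusted p = 0.629). Of 10 regulators of mitochondrial biogenesis, 8 were tested, and 3 of these lay below 0. Limma called 1 of the 8 lower (12.5%), beside 7.15% of all genes. That was Tfb1m, a methyltransferase of mitochondrial ribosomal RNA, at 3.50 and 3.61 log2 RPKM in the knockout libraries against 4.06 and 4.18 in wild type. Its groups did not overlap (change -0.56, SE 0.11, adjusted p = 0.0126), and the call was lost without wild type replicate 1 (adjusted p = 0.108) or 2 (0.131). Tfam, which packages mitochondrial DNA, had a change of -0.54 (adjusted p = 0.0608).

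**Figure D5:**
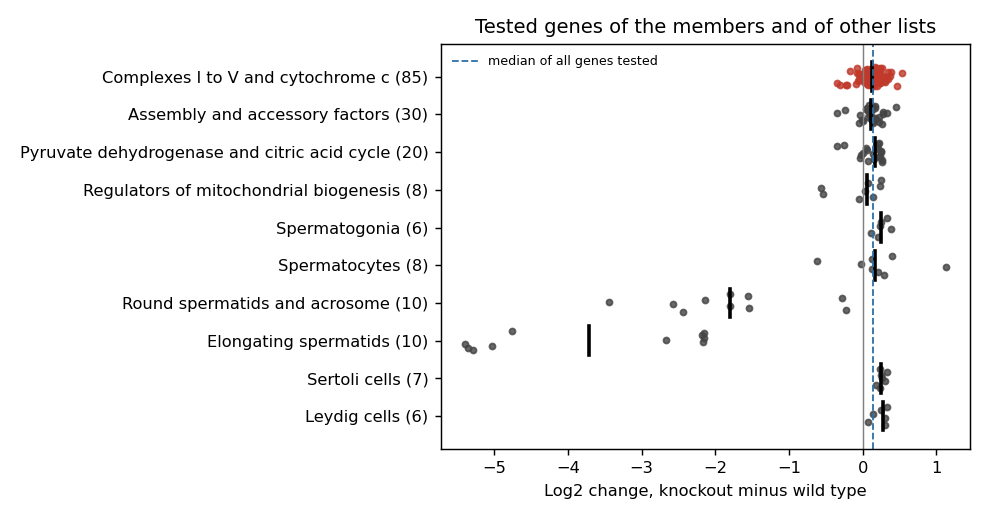
Log2 change (knockout minus wild type, x axis) of each tested gene of the complexes and of other gene lists, with bars at list medians and a dashed line at the median of all genes tested. The 85 members have a median of 0.13, and the spermatid lists have medians of -1.80 (round) and -3.71 (elongating).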

How the data were processed

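Messenger RNA of whole testes was measured in 4 libraries, 2 per group. Values are log2 RPKM per gene, as deposited by the authors. Per the submitters' processing notes, bcl2fastq 2.17.1.14, Bowtie2 and the mm9 genome were used. Counting tool, annotation, strand and filters: not given in the sources used here. Among 26127 entries, 59 without a gene name were dropped. Column names gave each library's group and number. Depth was estimated from single-exon genes, whose low values fell on whole multiples of 1 read, with 0.9 of a read standing for 0.

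Genes averaging at least 0 log2 RPKM entered a two-sided, unpaired limma 3.58.1 test (R 4.3.3, with trend and, through statmod 1.5.0, robust estimation). P-values were adjusted over 13414 genes by the Benjamini-Hochberg method. Isoform ratios used exact permutation tests in scipy 1.17.1. The code was tested on simulated data with 200 changed genes. Copies were sought with blastn 2.17.0 against Gencode M21 transcripts. Coordinates are mm9, except RefSeq promoters on GRCm38.p6.

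Members and lists were chosen with earlier results of these data known. Genes named were Adad2, members past the threshold, isoform pairs, members not tested, and in each complex the 3 highest, the 2 with the largest increase and the 2 with the largest decrease; a few others are named for their overlap or unadjusted p, after their values were seen. Alternatives were other filters, a pseudocount, 2 normalizations, another variance model, a replicate block, and leaving out each library.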

Additional observations from a re-analysis of the deposited data

How the results depend on the processing

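Adad2 and Ndufa1, the called genes recomputed under every alternative, kept their direction in each. Of the alternative values for single genes, 371 kept their side of the threshold, 15 passed it and 7 lost it; of those for counts, medians and isoform ratios 125 were little changed and 24 moved. Genes called lower numbered 959, and 637 at a filter of 2 log2 RPKM; genes called higher numbered 163, 97 with no filter and 245 after quantile normalization. Members called higher numbered 1, but 0 with no filter or without trend and robust estimation, 2 (Ndufa1 and Cox7a2l) at a filter of 2, on log2(RPKM + 1) or with equal library medians, and 4 after quantile normalization. Members called lower numbered 0, but 1 with no filter (Cox6a2, near the floor) and 1 after quantile normalization (Ndufaf2).

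Leaving out 1 library gave 0 to 1308 genes lower, 0 to 494 higher, and 0 to 1 members higher; both 0 counts over all genes came without wild type replicate 1. The median change of complex V ran between 0.0468 and 0.207. A group left with 1 library was assumed to vary like the other. The cause of these moves was not tested.

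Libraries share replicate numbers across groups. Deviations of same-numbered libraries correlated at 0.33 over genes, but with 2 pairs and no label tying them the numbers do not show pairing. A replicate block gave 1477 genes lower and 1837 higher, with 9 members higher and 2 lower. Depth limits values near the floor, where a gene without reads carries 0.9 of a read.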
